A study of Mus musculus with 8 samples.

Results

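Transcripts of 10 genes for channels opened by acetylcholine or ATP were followed in MB21 cells, a mouse medulloblastoma line. The genes were Chrna3, Chrna4, Chrna5, Chrna7, Chrnb2 and Chrnb4, which encode nicotinic acetylcholine receptor subunits, and P2rx3, P2rx4, P2rx5 and P2rx7, which encode P2X receptor subunits. They were chosen by family from the 55416 genes of the count table, and all 10 were found there. Chrnb4 and P2rx3 were picked because Chrnb4 was higher and P2rx3 lower with the compound, so their values are given as a description with no test. The other 8 were taken for their family alone, with earlier results of these data known.

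The cells carry a mutation in Ptch (labelled ptch mutant), which both groups share, and were grown non-adherent in DMEM/F12 with B27 supplement. The compound, DS-1-38 (DS38 here), is a derivative of benzarone and was given at 10 uM over 5 days; controls received its vehicle, DMSO. Messenger RNA was sequenced from 4 libraries per group, with 17142397 to 28476019 counts each. All samples are of 1 cell line. Whether replicate libraries stem from different cultures is not stated in the labels, and p-values therefore cover only the spread among these libraries, which may be technical.

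Nicotinic receptors are pentamers that pass cations when acetylcholine binds. The alpha3 and beta4 subunits form the main receptor of autonomic ganglia, in which alpha5 can take an accessory place, while alpha4 with beta2 and alpha7 alone make the common receptors of the brain. P2X receptors are trimers opened by extracellular ATP. P2X3 is best known from sensory neurons that signal pain, P2X4 and P2X7 are widely studied in microglia and macrophages, and P2X7 needs high ATP to open.

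Chrna5, Chrna3 and Chrnb4 lie next to each other on chromosome 9, and their promoters are shown because the 3 genes of this cluster were all higher with DS38. In the GENCODE and RefSeq annotations of the earlier build GRCm38, Chrna5 is on the plus strand and the other 2 are on the minus strand. RefSeq's promoter table for GRCm38.p6 matched 8 of the 10 genes, all but P2rx3 and P2rx5, at 10 start sites. Each sequence runs 5′ to 3′ from 250 bases before to 50 bases after the annotated start, and capitals mark the GC box, GGGCGG on either strand, the element bound by Sp1 and Sp3. The Chrnb4 promoter is at chr9:55048495-55048794 on the minus strand and Chrna3's at chr9:55026513-55026812 on the minus strand. The Chrna5 starts are at chr9:54980630-54980929 and chr9:54981238-54981537 on the plus strand.
Chrnb4: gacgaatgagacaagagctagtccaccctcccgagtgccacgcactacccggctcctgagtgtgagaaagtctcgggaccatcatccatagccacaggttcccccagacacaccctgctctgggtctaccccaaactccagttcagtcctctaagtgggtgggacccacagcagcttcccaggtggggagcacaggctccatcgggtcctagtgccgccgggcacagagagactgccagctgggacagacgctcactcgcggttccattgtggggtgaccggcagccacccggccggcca
Chrna3: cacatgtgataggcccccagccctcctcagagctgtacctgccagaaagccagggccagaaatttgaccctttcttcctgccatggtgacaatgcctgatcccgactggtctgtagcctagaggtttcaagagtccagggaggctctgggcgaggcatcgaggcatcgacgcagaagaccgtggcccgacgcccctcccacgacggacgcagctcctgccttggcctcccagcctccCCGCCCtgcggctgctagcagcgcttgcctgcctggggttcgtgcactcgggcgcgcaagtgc
Chrna5 first start: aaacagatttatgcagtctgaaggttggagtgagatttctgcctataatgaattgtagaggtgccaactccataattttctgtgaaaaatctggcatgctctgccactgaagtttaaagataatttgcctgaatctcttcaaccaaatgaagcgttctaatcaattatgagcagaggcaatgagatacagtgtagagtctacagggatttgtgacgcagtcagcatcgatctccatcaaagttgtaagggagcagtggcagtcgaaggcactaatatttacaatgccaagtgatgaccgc
Chrna5 second start: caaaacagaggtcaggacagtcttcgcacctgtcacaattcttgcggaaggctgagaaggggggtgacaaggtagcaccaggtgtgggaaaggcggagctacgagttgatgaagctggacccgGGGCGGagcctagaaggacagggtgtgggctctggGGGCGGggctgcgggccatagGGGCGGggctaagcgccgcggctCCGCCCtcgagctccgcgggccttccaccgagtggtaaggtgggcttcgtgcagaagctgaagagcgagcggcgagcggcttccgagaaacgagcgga

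The GC box was found 4 times at the second Chrna5 start, 127, 92, 71 and 48 bases upstream of it, and 1 time at Chrna3, 13 bases upstream. It was absent from the letters of the Chrnb4 window and of the first Chrna5 window, and 35.7% of the 32851 promoters in the table hold it. Of the members' 10 windows, 7 held at least 1 GC box. The E-box CANNTG, which bHLH factors bind, was found 2 times at Chrnb4, 3 times at Chrna3 and 2 times at each Chrna5 start, against 72.3% of promoters with at least 1. Neither the core of the amino acid response element bound by Atf4, TGATGNAA, nor the Gli site TGGGTGGTC was found in any of the 10 windows. They occur in 3.97% and 0.253% of all promoters. The 10 windows are those of 8 genes, and P2rx3 and P2rx5 had no window to search. Each motif was searched on both strands and counted by itself, so matches of different motifs may overlap. A match here is a description of letters, and a missing match says only that these letters are not in the window. The second Chrna5 window had 25 CpG dinucleotides, Chrna3's 18, Chrnb4's 14 and the first Chrna5 window 5, beside a median of 7 over all promoters.

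Of the cluster, Chrnb4 had the largest difference. Levels are in CPM, counts scaled to a common library size after adjustment by TMM factors. Chrnb4 (ENSMUSG00000035200), the beta4 subunit gene, stood at 5.01, 5.61, 5.55 and 5.61 in DMSO libraries 1 to 4 and at 17.7, 17.6, 17.9 and 13.6 in DS38 libraries 1 to 4. Every DS38 library was above every DMSO library, and DS38 library 4 lay apart below the other 3. The means were 5.45 ± 0.289 and 16.7 ± 2.05 CPM (SD, n = 4 each), a log2 fold change of 1.62 ± 0.0996 SE, or 3.08-fold. In bulk RNA, a change in the number of cells that express a gene and a change in the RNA per cell cannot be told apart.

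Chrna3 (ENSMUSG00000032303), which encodes the alpha3 partner of beta4, was read from far fewer counts. Its values were 1.32, 0.826, 1.196 and 1.43 CPM in DMSO libraries 1 to 4 and 2.22, 1.93, 2.02 and 2.24 CPM in DS38 libraries 1 to 4. The groups did not overlap. Chrna3 rose 1.76-fold (log2 change 0.81 ± 0.203 SE, adjusted p = 0.00378, edgeR).

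Chrna5 (ENSMUSG00000035594), the accessory alpha5 subunit gene, was at 7.06, 6.39, 7.18 and 7.71 CPM in DMSO and at 8.79, 11.8, 10.5 and 9.11 CPM in DS38. Again the lowest DS38 library stood above the highest DMSO library. Chrna5 rose 1.43-fold (log2 change 0.51 ± 0.107 SE, adjusted p = 0.000942, edgeR). Whether the size of the change differs between the 3 genes was not tested, since Chrnb4 was picked for its rise. RefSeq has the ends of Chrna5 and Chrna3 overlapping on opposite strands, and GENCODE places the antisense gene Gm47877 over Chrnb4. The strand setting of the counting is not given in the sources used here, so reads of such partners cannot be told apart.

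**Figure D1:**
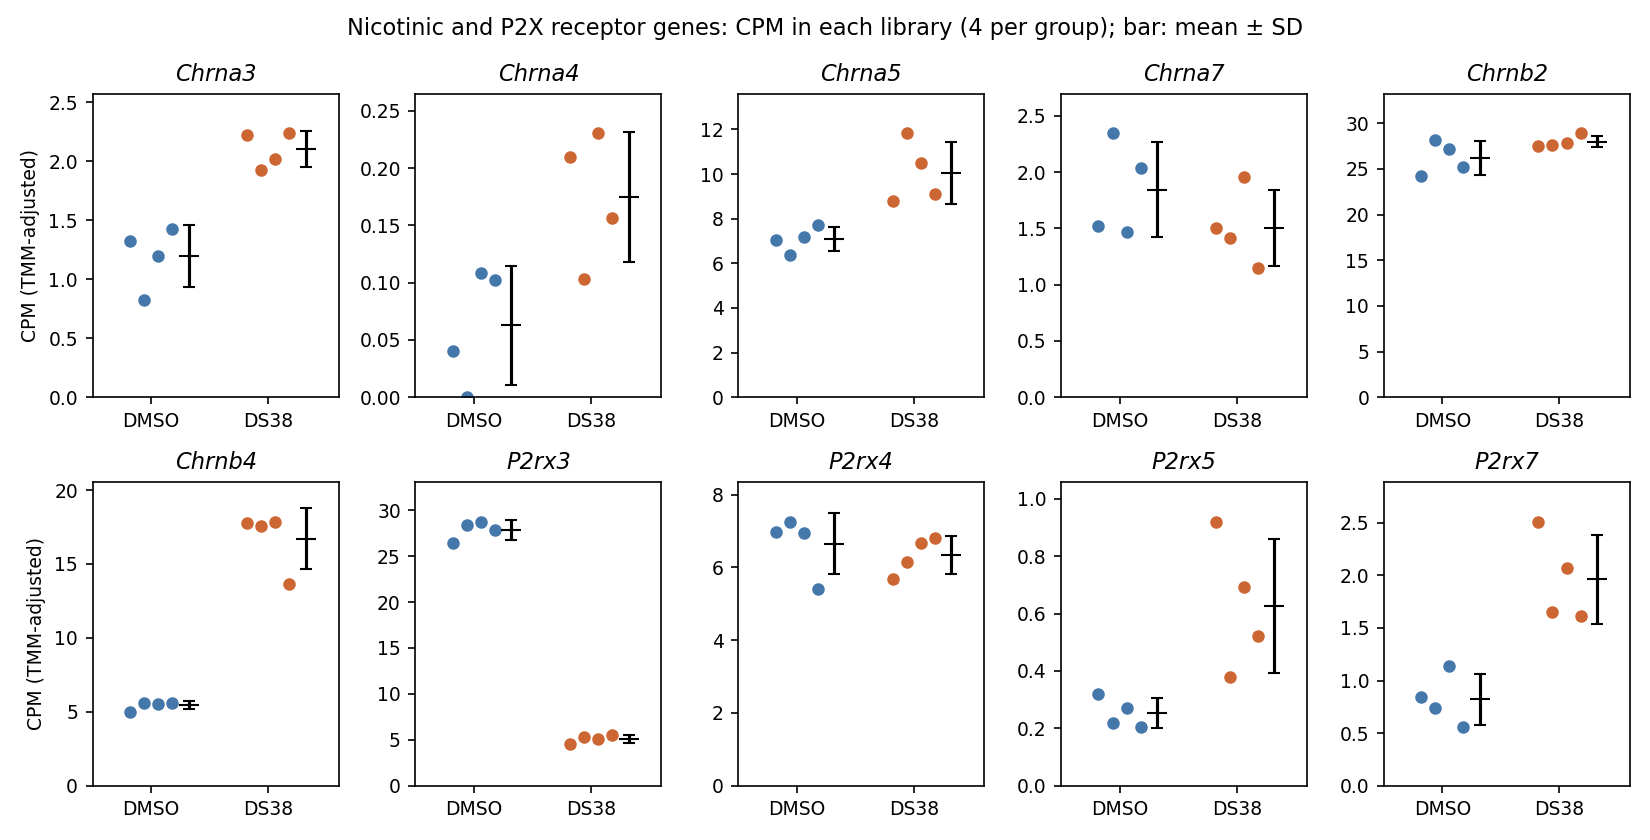
TMM-adjusted CPM (vertical axis, linear, a scale of its own in each panel) of each of the 10 genes in the 4 DMSO and 4 DS38 libraries, left to right by replicate number; black bars are mean ± SD. Chrna3, Chrna5, Chrnb4, P2rx5 and P2rx7 have every DS38 library above every DMSO library, P2rx3 has every one below, and the other 4 genes overlap.

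The brain-type subunit genes did not pass the test. Chrnb2 (ENSMUSG00000027950), the beta2 subunit gene, ran from 24.2 to 28.2 CPM in DMSO and from 27.5 to 28.9 CPM in DS38, and the groups overlapped. Its log2 difference of 0.10 ± 0.0589 SE did not pass the test (adjusted p = 0.213, edgeR). With libraries scaled by their totals alone it passed (log2 change 0.16, adjusted p = 0.0435). GENCODE and RefSeq both have Chrnb2 overlapping Adar, an RNA-editing enzyme gene on the opposite strand, which stood at 52.6 and 48.9 CPM and did not pass either (log2 difference -0.10, adjusted p = 0.0813, edgeR).

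Chrna7 (ENSMUSG00000030525), which encodes the alpha7 subunit, ran from 1.47 to 2.35 CPM in DMSO and from 1.14 to 1.96 CPM in DS38. The overlap was wide, and the log2 difference of -0.31 ± 0.218 SE did not pass (adjusted p = 0.279, edgeR). Chrna4 (ENSMUSG00000027577), the alpha4 subunit gene, was close to silent, with 5 counts over the DMSO libraries and 15 over the DS38 libraries. It fell under the filter on low counts, and without the filter it did not pass (adjusted p = 0.243, edgeR).

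Among the remaining nicotinic genes, Chrnb1, which encodes the beta subunit of the muscle receptor, was the sole 1 of 10 with enough counts to test. It stood at 4.03 ± 0.664 and 4.80 ± 0.170 CPM (SD, n = 4 each) and did not pass (log2 difference 0.26 ± 0.134 SE, adjusted p = 0.138, edgeR). Chrna6, Chrna9, Chrna10 and Chrnb3 had 0 counts in every library. A count of 0 leaves room for a level of up to 0.175 CPM in the shallowest library (3 counts, counting error only). Chrna1, Chrna2, Chrnd, Chrne and Chrng had counts too few to test.

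P2rx3 (ENSMUSG00000027071) showed the opposite pattern to Chrnb4. This gene for the sensory ATP-gated channel stood at 26.4, 28.4, 28.8 and 27.8 CPM in DMSO libraries 1 to 4 and at 4.52, 5.26, 5.07 and 5.52 CPM in DS38 libraries 1 to 4. All 4 DS38 libraries lay below all 4 DMSO libraries, with a narrow spread in both groups. The means were 27.8 ± 1.04 and 5.09 ± 0.423 CPM (SD, n = 4 each), a 5.47-fold lower level in DS38 (log2 change -2.45 ± 0.0772 SE). In GENCODE, Ssrp1, a histone chaperone gene on the opposite strand, overlaps P2rx3, and in RefSeq Prg3 does. Ssrp1 stood at 530.9 and 478 CPM and fell by 0.15 on the log2 scale (adjusted p = 0.00553, edgeR). The part of Ssrp1 reads in the P2rx3 counts was not tested.

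P2rx7 (ENSMUSG00000029468), whose channel can open a large pore in immune cells, was low in both groups. It was at 0.842, 0.739, 1.14 and 0.561 CPM in DMSO and at 2.51, 1.65, 2.07 and 1.61 CPM in DS38. Each DS38 library exceeded each DMSO library. P2rx7 rose 2.39-fold (log2 change 1.26 ± 0.244 SE, adjusted p = 0.0005, edgeR).

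Its chromosomal neighbour P2rx4 (ENSMUSG00000029470), a P2X subunit gene with broad expression, ran from 5.41 to 7.26 CPM in DMSO and from 5.69 to 6.82 CPM in DS38. The groups overlapped and the log2 difference of -0.08 ± 0.114 SE did not pass (adjusted p = 0.613, edgeR). P2rx4 and P2rx7 lie next to each other on chromosome 5 in the same orientation, and RefSeq has P2rx4 overlapping Camkk2 on the opposite strand.

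P2rx5 (ENSMUSG00000005950), which encodes another P2X subunit, had 8, 5, 5 and 4 counts in DMSO libraries 1 to 4 and 22, 11, 12 and 10 counts in DS38 libraries 1 to 4. In CPM it ran from 0.204 to 0.321 in DMSO and from 0.378 to 0.921 in DS38, so the groups did not overlap. The filter on low counts left it out. It asks for 0.464 CPM in at least 4 libraries, which 3 DS38 and 0 DMSO libraries reached. Without the filter, P2rx5 had a log2 fold change of 1.25 ± 0.417 SE (adjusted p = 0.017, edgeR; DESeq2 adjusted p = 0.0471). Of 3598 genes under the filter with at least 20 counts in all, 5.92% rose in that fit and 1.06% fell.

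P2rx1, P2rx2 and P2rx6, the remaining P2X genes, had too few counts to test. Their summed level ran from 0.163 to 0.602 CPM in DMSO and from 0.551 to 0.795 CPM in DS38.

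Of the 10 genes, 8 passed the filter, each with all 4 libraries of both groups above the minimum. Among the 6 of these not picked for their pattern, 3 rose, 0 fell and 3 did not pass in edgeR's quasi-likelihood test. Of the 3 that did not pass, 0 had an unadjusted p under 0.05. With Chrnb4 and P2rx3 left out, DESeq2 also called 0 members lower. Over all 15133 genes tested, 39.5% passed: 18.8% of all rose and 20.7% fell. Risers were 47.5% of the called genes, and 64.3% with libraries scaled by their totals alone. Since genes differ in precision by level, the same shares within a range of levels are given too. Chrna3, Chrna7 and P2rx7 had a mean under 2 CPM, where 14.3% of 3023 genes rose and 4.96% fell. Chrna5 and P2rx4 lay at 5 to 20 CPM, where 19.8% of genes rose and 18.6% fell, and Chrnb2 lay above 20 CPM, where 20.6% rose and 29.7% fell. DS38 was above DMSO without overlap in 17.3% of all tested genes and below it in 18.8%. The median log2 fold change was 0.51 over the 5 nicotinic genes tested and -0.08 over the 3 P2X genes tested, both with the picked gene included, beside -0.01 over all genes. Without Chrnb4 and P2rx3 the medians were 0.30 over 4 nicotinic genes and 0.59 over 2 P2X genes, so the P2X median changed sign. At 2 to 5 CPM, where Chrnb1 and P2ry2 lie, 16.5% of genes rose and 11.1% fell. Nothing particular to the family is read from these shares.

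**Figure D2:**
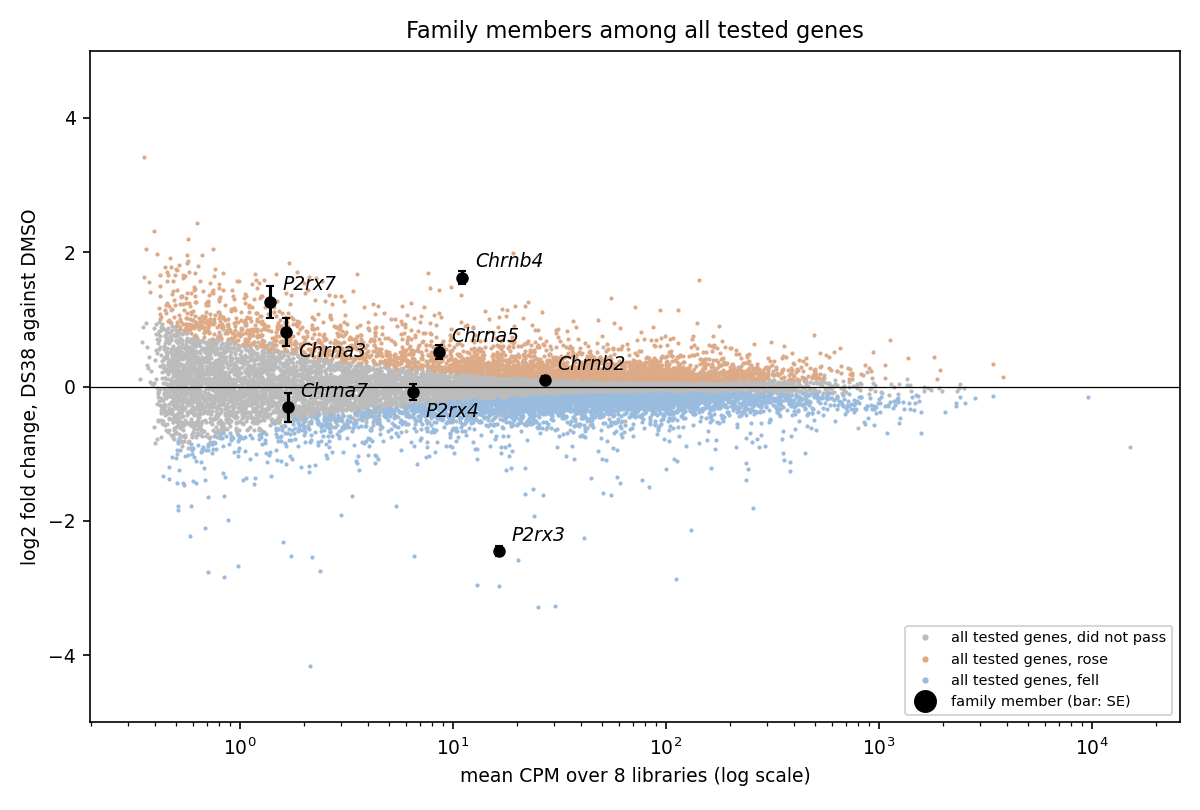
Mean CPM over the 8 libraries (horizontal, log scale) against the log2 fold change of DS38 over DMSO (vertical) for the 15133 tested genes, with the 8 tested members in black and their standard error as bars. Chrnb4 at 1.62 and P2rx3 at -2.45 lie at the outer edges of the cloud at their levels, P2rx7 at 1.26 near its upper edge, and Chrnb2, P2rx4 and Chrna7 within the grey band of genes that did not pass.

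Levels of different genes were compared per length, as CPM per kilobase of the deposited gene length. In DMSO the order was P2rx3 at 9.99 ± 0.374, Chrnb2 at 3.13 ± 0.217, Chrna5 at 2.27 ± 0.173, Chrnb4 at 1.46 ± 0.0776 and P2rx4 at 0.947 ± 0.119 CPM per kilobase (SD, n = 4). Chrna7 at 0.410 ± 0.0938, Chrna3 at 0.227 ± 0.04997, P2rx7 at 0.138 ± 0.0407, P2rx5 at 0.106 ± 0.0224 and Chrna4 at 0.0125 ± 0.0104 CPM per kilobase followed. Within this order, P2rx7 and P2rx5 differed by less than their spread.

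In DS38 the order changed. Chrnb4 came first at 4.49 ± 0.551, ahead of Chrnb2 at 3.34 ± 0.0760, Chrna5 at 3.22 ± 0.447, P2rx3 at 1.83 ± 0.152 and P2rx4 at 0.902 ± 0.0734 CPM per kilobase (SD, n = 4). Next were Chrna3 at 0.399 ± 0.0290, Chrna7 at 0.334 ± 0.0753, P2rx7 at 0.329 ± 0.0706, P2rx5 at 0.262 ± 0.0975 and Chrna4 at 0.0348 ± 0.0114 CPM per kilobase. Chrnb2 and Chrna5, Chrna3 and Chrna7, Chrna7 and P2rx7, and P2rx7 and P2rx5 did not differ beyond their spread. P2rx3 went from above 65.2% of tested genes in DMSO to above 29.1% in DS38 on this per-length scale, and Chrnb4 from above 25.6% to above 46.3%.

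The share of each gene in its family's summed level is given as a description, since Chrnb4 and P2rx3, picked for their change, hold much of these sums and their change moves the shares of all other members. Chrnb4 held 19.5% ± 0.351 of the summed per-length level of the 6 nicotinic genes in DMSO and 37.9% ± 2.84 in DS38 (SD, n = 4). Chrnb2 went from 41.7% ± 2.32 to 28.4% ± 2.61 of that sum and Chrna5 from 30.2% ± 2.34 to 27.2% ± 2.51. The sum itself went from 7.50 ± 0.284 to 11.8 ± 0.804 CPM per kilobase. P2rx3 held 89.4% ± 1.36 of the 4 P2X genes' sum in DMSO and 55.0% ± 4.06 in DS38, while P2rx4 went from 8.47% ± 0.993 to 27.2% ± 1.45 while its own level did not pass the test. The P2X sum went from 11.2 ± 0.415 to 3.32 ± 0.119 CPM per kilobase.

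**Figure D3:**
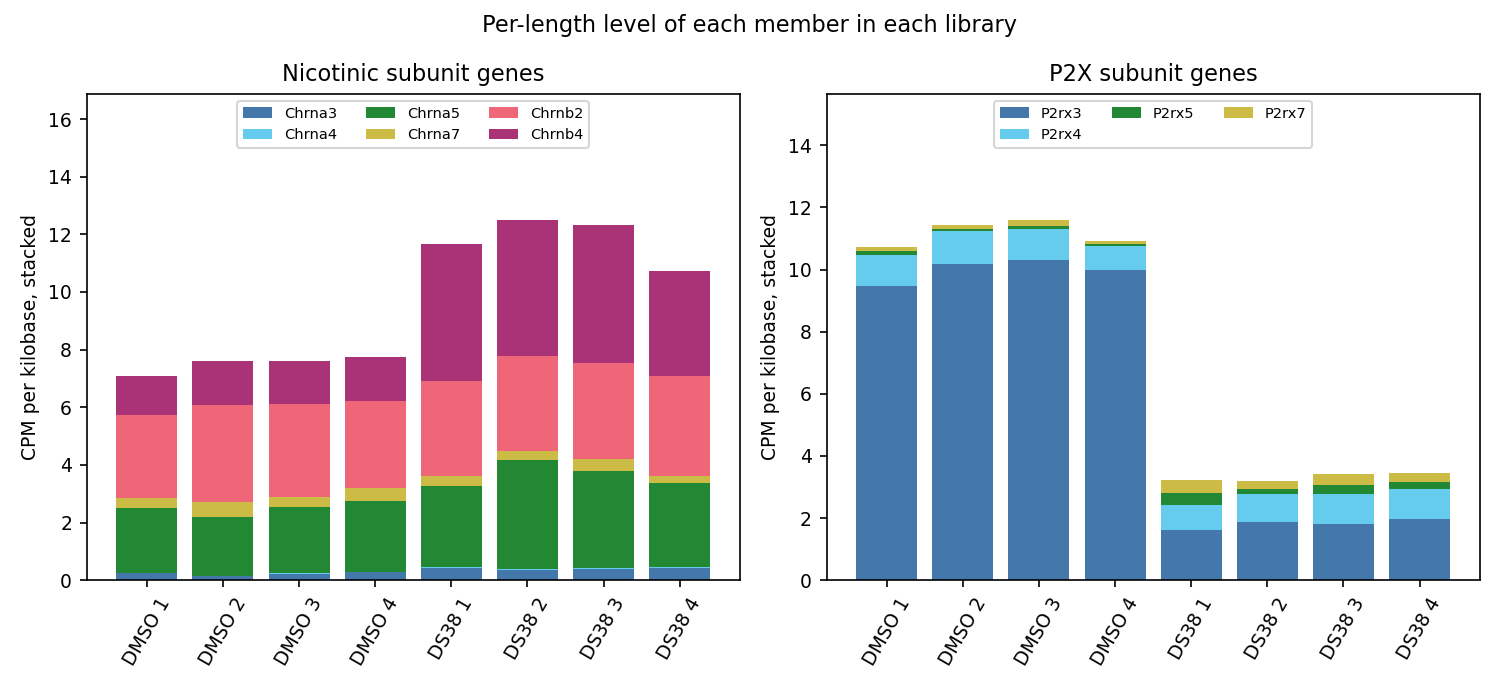
Stacked bars give the CPM per kilobase (vertical axis) of each nicotinic (left) and P2X (right) gene in each of the 8 libraries. The nicotinic bars are taller in DS38, mainly through Chrnb4, and the P2X bars fall from about 11.2 to about 3.32 CPM per kilobase with P2rx3.

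Within the cluster the ratio of the per-length level of Chrnb4 to that of Chrna5 ran from 0.596 to 0.737 in DMSO and from 1.247 to 1.695 in DS38. The ratio of Chrnb4 to Chrna3 ran from 5.36 to 9.60 and from 8.62 to 12.9, with overlap. That of Chrna5 to Chrna3 also overlapped, at 8.98 to 13.03 in DMSO and 6.67 to 10.35 in DS38. Against the brain-type beta subunit gene, Chrnb4 had 0.447 to 0.5002 of the level of Chrnb2 in DMSO and 1.06 to 1.45 times its level in DS38.

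The genes whose levels most resembled those of Chrnb4 and P2rx3 were ranked by Pearson's r of log2(CPM + 0.1) over the 8 libraries, among 10170 named genes that average 4 CPM or more. For Chrnb4 they were Uaca (r = 0.996), Adora1 (0.9954), Kcnd3 (0.9947), Rfx1 (0.9943) and Stat3 (0.9937). Adora1 encodes the adenosine A1 receptor, Kcnd3 a potassium channel, and Rfx1 and Stat3 transcription factors. Their log2 fold changes ran from 0.24 for Rfx1 to 1.05 for Adora1. For P2rx3 they were Asns (r = 0.9988), Slc1a5 (0.9985), Cars (0.9979), Slc7a3 (0.9977) and Cth (0.9976). Asns encodes asparagine synthetase, Slc1a5 and Slc7a3 amino acid transporters, Cars cysteinyl-tRNA synthetase and Cth cystathionine gamma-lyase. Their log2 fold changes ran from -0.80 for Cars to -2.58 for Slc7a3. The 8 points share their treatment group, 4 in each, and the r values are a description with no test.

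Genes beside the members were examined for the same contrast. The 14 distinct nearest protein-coding neighbours outside the family included 11 tested ones, of which 2 rose, 3 fell and 6 did not pass. Over all 15133 genes tested, 18.8% rose and 20.7% fell, and nothing particular to these neighbours is read from their counts. Next to Chrnb4, the ubiquitin-conjugating enzyme gene Ube2q2 rose by 0.16 on the log2 scale (adjusted p = 0.00253, edgeR). Next to Chrna5, the proteasome gene Psma4 had a log2 fold change of -0.12 (adjusted p = 0.0286, edgeR). That call was lost on leaving out DMSO replicate 1 (adjusted p = 0.0547), 2 (0.0733) or 3 (0.0711), or DS38 replicate 1 (0.0867), 2 (0.0573) or 3 (0.0815). It was also lost with library totals alone (0.272), with the replicate block (0.0708) and with a gene length offset (0.134). Col20a1, a collagen gene beside Chrna4, had a log2 fold change of 0.69 (adjusted p = 0.015, edgeR), lost without DS38 replicate 1 (0.0586). Tnks1bp1, beside P2rx3, fell by 0.16 on the log2 scale (adjusted p = 0.00334, edgeR), and Emc6, beside P2rx5, fell by 0.19 (adjusted p = 0.0053, edgeR). These neighbours were picked by position after the members' values were known.

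A further list named 5 genes as neighbours of the cluster, of which 3 rose, 1 fell and 1 did not pass. By position, Psma4 alone of these 5 was a nearest neighbour of a cluster gene. The places of the other listed genes in the mouse genome were not checked, so their changes are not read as local. Ireb2, an iron-regulatory RNA-binding protein gene, rose by 0.14 on the log2 scale (adjusted p = 0.00721, edgeR), and the metalloprotease gene Adamts7 by 0.67 (adjusted p = 0.0105, edgeR). Hykk, the hydroxylysine kinase gene, had a log2 fold change of 0.65 (adjusted p = 0.0113, edgeR), a call lost without DS38 replicate 1 (0.0566) and without both libraries numbered 1 (0.0801). The fall in this list is that of Psma4. Adamts7 and Hykk were low, near 1.82 and 1.88 CPM in DMSO.

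Genes for reported regulators of this cluster made up a list of 8, of which 5 could be tested, 1 rose, 2 fell and 2 did not pass. Pou4f1, a sensory neuron homeobox gene, rose from 104 ± 4.42 to 117 ± 1.75 CPM (n = 4 each, SD; log2 change 0.17, adjusted p = 0.00215, edgeR). Sp3, one of the factors that bind the GC box, fell by 0.15 on the log2 scale (adjusted p = 0.00767, edgeR). Sp1 also had -0.15 (adjusted p = 0.0137, edgeR), but lost its call without DMSO replicate 3 (0.0521) or DS38 replicate 4 (0.0522). With library totals alone, neither Sp3 (0.106) nor Sp1 (0.122) passed. Sox10 and Phox2a had too few counts to test.

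Of 14 genes whose proteins assemble or modulate nicotinic receptors, 7 could be tested, 1 rose, 1 fell and 5 did not pass. Lynx1, whose product binds nicotinic receptors and dampens them, rose from 7.14 ± 0.438 to 9.42 ± 0.506 CPM (n = 4 each, SD; log2 change 0.40, adjusted p = 0.00193, edgeR). Rer1, which retains unassembled subunits early in the secretory path, fell by 0.35 on the log2 scale (adjusted p = 3.27e-06, edgeR). The chaperone gene Ric3 (log2 difference 0.15, adjusted p = 0.0568, edgeR) and the Ly6 protein gene Lypd6 (0.29, adjusted p = 0.0515, edgeR) missed the threshold narrowly.

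Genes that make and remove acetylcholine ranged widely in level. Of 9, 5 could be tested, 1 rose, 1 fell and 3 did not pass. Ache, the acetylcholinesterase gene, fell from 1.39 ± 0.141 to 0.721 ± 0.179 CPM (n = 4 each, SD; log2 change -0.96 ± 0.239 SE, adjusted p = 0.00391, edgeR). Chka, a choline kinase gene, rose by 0.18 on the log2 scale (adjusted p = 0.00933, edgeR), a call lost with a gene length offset (0.0613). Bche, the butyrylcholinesterase gene, did not pass (log2 difference 0.20, adjusted p = 0.0585, edgeR). Chat, which encodes the enzyme that makes acetylcholine, had 2 counts in DMSO and 0 in DS38, and the choline transporter gene Slc5a7 had 0 in all libraries.

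The muscarinic receptor genes, which encode the other class of acetylcholine receptor, gave calls that did not withstand the loss of a library. Of 5 genes, 3 could be tested, and 2 rose while 1 fell, but 0 of these 3 calls held in each fit that left 1 library out. Chrm3 had a log2 fold change of 0.80 (adjusted p = 0.0348, edgeR), lost without DMSO replicate 2 (0.131) or 4 (0.0712), or DS38 replicate 2 (0.0712) or 3 (0.077). Chrm4 had 0.64 (adjusted p = 0.0371, edgeR), lost without DMSO replicate 2 (0.0888), 3 (0.0688) or 4 (0.0878), or DS38 replicate 2 (0.156) or 4 (0.0564). Chrm1 had -0.33 (adjusted p = 0.049, edgeR), lost without DMSO replicate 1 (0.0883), 2 (0.0597), 3 (0.112) or 4 (0.0695), or DS38 replicate 1 (0.151), 3 (0.133) or 4 (0.0602).

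Of the tested genes for purine signalling outside the P2X family, Adora1, the adenosine A1 receptor gene, had the largest log2 fold change. It rose from 11.6 ± 0.450 to 24.1 ± 1.46 CPM (SD, n = 4 each), or 2.08-fold (log2 change 1.05 ± 0.0683 SE, adjusted p = 1.13e-09, edgeR), and was the sole 1 of 4 adenosine receptor genes with enough counts to test. Entpd2, whose ecto-enzyme splits extracellular ATP, fell from 12.7 ± 1.70 to 8.18 ± 0.862 CPM (log2 change -0.65, adjusted p = 7.19e-05, edgeR). Of 6 nucleotide-breakdown genes tested out of 11, 2 rose, 2 fell and 2 did not pass, and the Entpd2 call was the 1 of 4 that held in each fit with 1 library left out. Nt5e, whose ecto-enzyme makes adenosine from AMP, had 0.39 (adjusted p = 0.046, edgeR), lost without DMSO replicate 1 (0.104), 2 (0.129) or 3 (0.0891), or DS38 replicate 1 (0.122), 2 (0.117) or 3 (0.105). Adk, the adenosine kinase gene, had 0.13 (adjusted p = 0.029, edgeR), lost without DMSO replicate 2 (0.0715) or 4 (0.085), or DS38 replicate 2 (0.0741) or 4 (0.0809). Ada, the adenosine deaminase gene, had -0.27 (adjusted p = 0.0289, edgeR), lost without DMSO replicate 1 (0.105) or 2 (0.0726), or DS38 replicate 1 (0.0889) or 3 (0.0649). P2ry2, the sole P2Y receptor gene of 7 with enough counts, did not pass (log2 difference -0.22, adjusted p = 0.242, edgeR).

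Of 8 genes for ATP release, 2 could be tested, 0 rose, 1 fell and 1 did not pass. Panx1, the main pannexin channel gene, did not pass (log2 difference -0.09, adjusted p = 0.298, edgeR). The volume-regulated channel gene Lrrc8a had -0.23 (adjusted p = 0.0365, edgeR), a call lost on leaving out DMSO replicate 2 (0.0986), 3 (0.0992) or 4 (0.0567), or DS38 replicate 1 (0.0502), 3 (0.107) or 4 (0.0831). Htr3a, the serotonin-gated relative of the nicotinic genes, had a log2 fold change of 0.33 (adjusted p = 0.0135, edgeR), lost without DMSO replicate 3 (0.0506), DS38 replicate 1 (0.0508) or DS38 replicate 2 (0.0514).

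**Figure D4:**
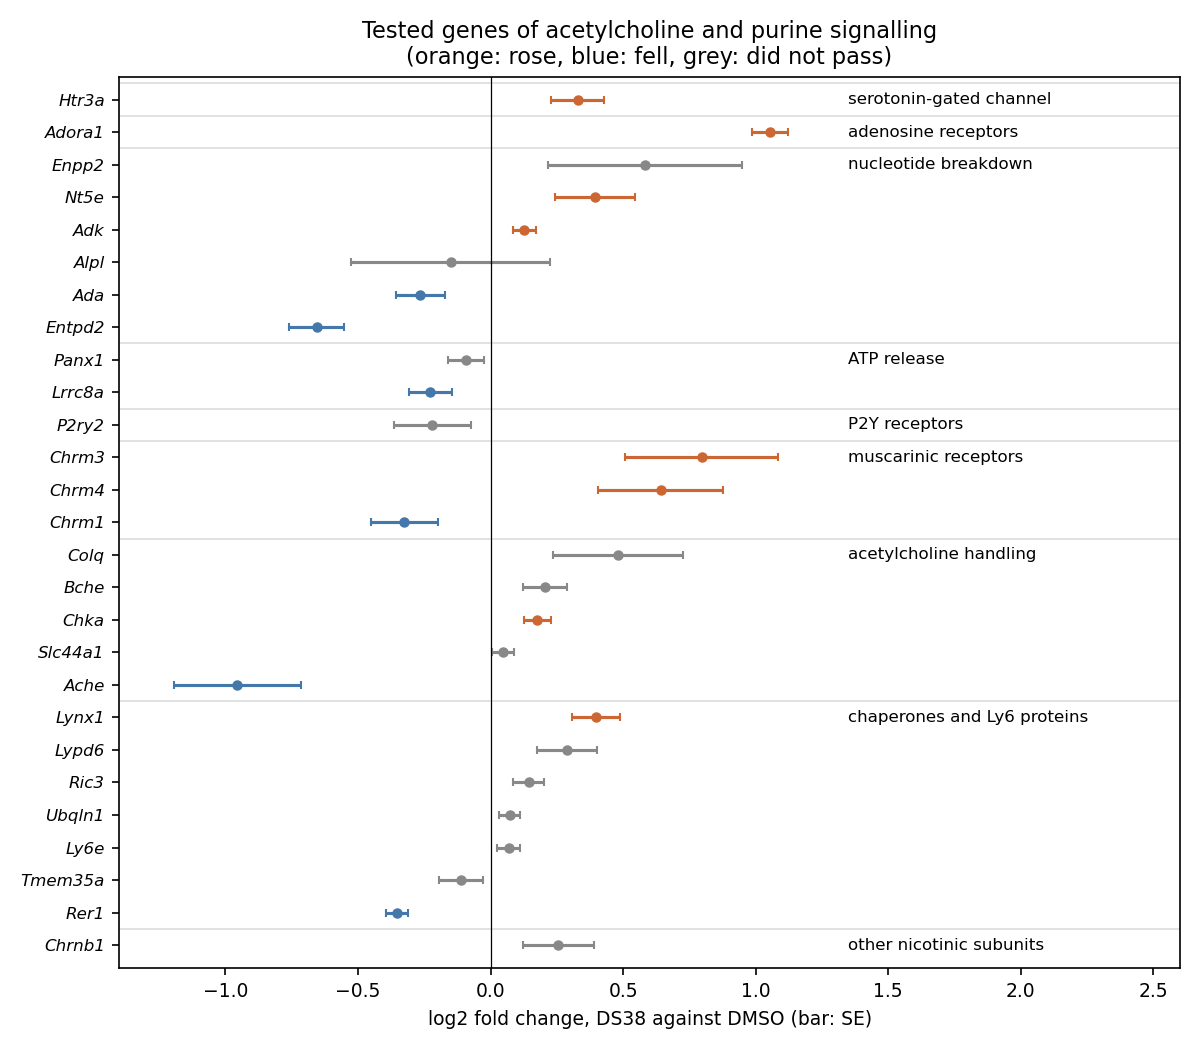
The log2 fold change of DS38 over DMSO (horizontal axis, bar: SE) for each tested gene on the lists of acetylcholine and purine signalling, coloured by its call. Adora1 at 1.05 lies farthest to the right and Ache at -0.96 farthest to the left. Of the 27 genes, 14 passed the threshold, beside 39.5% of all 15133 genes tested. The calls of Chrm1, Chrm3, Chrm4, Lrrc8a, Nt5e, Ada, Adk and Htr3a did not hold in every fit that left 1 library out.

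Markers of the cell types in which these channels are best known were read beside them. Of 10 microglia and macrophage markers, 8 had under 10 counts in all 8 libraries together, with Cx3cr1, C1qa and C1qb at 0. Their summed level ran from 1.196 to 1.645 CPM in DMSO and from 1.63 to 2.31 CPM in DS38, mostly Cd68, which did not pass (adjusted p = 0.0854, edgeR). Tmem119, a microglia gene, had 21 counts in DMSO and 27 in DS38 (0.241 ± 0.123 and 0.312 ± 0.142 CPM, SD, n = 4 each), too few to test. Cd68 stood at 1.17 CPM in DMSO and 1.65 CPM in DS38, and P2rx7 at 0.821 and 1.96 CPM. These values are not divided by gene length, so the levels of Cd68 and P2rx7 are not compared. Of 10 sensory neuron markers, 5 could be tested, 4 rose, 0 fell and 1 did not pass. Over all genes tested, 18.8% rose and 20.7% fell. The sum of these markers ran from 114 to 122 CPM in DMSO and from 152 to 159 CPM in DS38. The risers were Prph (log2 change 1.99), Avil (0.94), Isl1 (0.41) and Pou4f1 (0.17), while the nociceptor genes Scn10a, Scn9a and Trpv1 were at or near 0. P2rx3 was lower in DS38 while these 4 markers were higher.

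Of 8 autonomic neuron markers, Isl1 alone could be tested, and Hand2 and Dbh were at 0. Their sum ran from 5.16 to 6.20 CPM in DMSO and from 7.02 to 8.27 CPM in DS38, which was mostly Isl1. Skeletal muscle markers, 7 in all, summed to 0.357 to 0.652 CPM in DMSO and 0.419 to 0.864 CPM in DS38. Of 6 astrocyte markers, 3 could be tested, with Gfap higher and Slc1a3 lower, and Gjb6 at 0, and their sum ran from 119 to 124 CPM in DMSO and from 111 to 114 CPM in DS38. Of 6 oligodendrocyte markers, 3 could be tested and 3 did not pass, with Mag at 0. Markers of the granule neuron lineage, from which this tumour type arises, were present: 9 of 10 could be tested, 4 rose, 3 fell and 2 did not pass, and 6 of the 7 calls held with each library left out in turn. Their sum ran from 1733 to 1800 CPM in DMSO and from 1773 to 1835 CPM in DS38. Over all 15133 genes tested, 18.8% rose and 20.7% fell. Atoh1, the progenitor factor of this lineage, rose from 284 to 432 CPM (adjusted p = 9.09e-10, edgeR). Barhl1 rose from 101 to 165 CPM (adjusted p = 2.76e-08, edgeR) and Zic2 from 141 to 160 CPM (adjusted p = 0.0018, edgeR). Pax6 went from 51.3 to 55.5 CPM (adjusted p = 0.0385, edgeR), the call that did not hold. The Hedgehog pathway genes Gli1 (137 to 90.9 CPM, adjusted p = 2.65e-09, edgeR) and Ptch1 (256 to 174 CPM, adjusted p = 2.44e-05, edgeR) fell. So did the lineage factor gene Zic1 (624 to 557 CPM, adjusted p = 0.00738, edgeR). The part of any other cell type in the members' values was not tested.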

How the data were processed

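The authors deposited whole-number read counts per gene, with each gene's length. Named in the submitters' processing notes are the builds GRCm39 and GRCh38.p13 and the tools edgeR, R (4.1.0), Subread (2.0.3), featureCounts and STAR (2.7.9a). How strand and multi-mapping reads were handled, and the annotation, are not stated there. Of 55416 identifiers, 52083 matched a symbol in GENCODE.

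The main test was edgeR's robust quasi-likelihood test (edgeR 4.0.16, R 4.3.3) with TMM factors and the filterByExpr minimum of 10 counts. Benjamini-Hochberg adjustment ran across the 15133 genes kept, and the threshold was 0.05. The test was checked on simulated data. Standard errors are the log2 fold change over the square root of F. Library totals of 17142397 to 28476019 counts set the precision, and floors are 3 counts. Alternatives used DESeq2 1.42.0 and limma 3.58.1, other scalings and filters, thinning, a gene length offset, a replicate block and leaving out libraries.

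The members and the 21 gene lists (154 entries, 153 matched) were chosen with earlier results of these data known. Named genes were the 10 members, up to 4 genes of smallest p per list, and the 5 genes most like Chrnb4 or P2rx3. Genes found by position, and markers, fall outside that rule.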

Additional observations from a re-analysis of the deposited data

Results flagged for a closer look

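In 3 of 40 sets of 4 values checked (CPM and share of the family for each of the 10 genes in each group), 1 library lay far from the other 3, by the ratio of its gap to the whole range (beyond Dixon's critical value). About 1 in 20 such sets is flagged by chance. Chrnb4 in DS38 had library 4 at 13.6 CPM with the nearest at 17.6 CPM, a ratio of 0.934, and without that library its log2 fold change was 1.71. Chrnb4 in DMSO had library 1 at 5.01 CPM with the nearest at 5.54 CPM, a ratio of 0.885, and without it the log2 fold change was 1.58. P2rx4 in DMSO had library 4 at 5.41 CPM with the nearest at 6.96 CPM, a ratio of 0.838, and without it the log2 difference was -0.17 (adjusted p = 0.26, edgeR).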

How the results depend on the processing

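The rises of Chrna3, Chrna5 and P2rx7 kept their direction and stayed under the threshold in each alternative that tested them, 18, 19 and 18 in number, with log2 fold changes of 0.67 to 0.90, 0.42 to 0.58 and 1.11 to 1.43. Chrnb4 ran from 1.55 to 1.71 and P2rx3 from -2.48 to -2.39 over 19 alternatives. Without both libraries numbered 1 their values were 1.55 and -2.42. With at least 50 counts asked in 4 libraries, 1 member other than Chrnb4 and P2rx3 rose in place of 3, because Chrna3 and P2rx7 were no longer tested. That count was 4 in 8 settings: through Chrnb2 with library totals alone, and through P2rx5 with the DESeq2 Wald test, with no filter, and on leaving out any 1 DMSO library or DS38 replicate 2. By plain counts, with no division by length, Chrnb4 held 13.01% of the nicotinic sum in DMSO and 28.5% in DS38, and P2rx3 78.3% and 36.3% of the P2X sum. Scaling by library totals alone raised the share of risers among called genes from 47.5% to 64.3%, with a median log2 fold change of 0.05.

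Deviations from the group mean showed no steady pairing by replicate number, correlating at 0.383, -0.115, 0.0836 and -0.293 for numbers 1 to 4. The libraries numbered 1 were each other's closest match, but not every library correlated best with its own number. These correlations cannot exclude a pairing, since the deviations within a group depend on each other. With the replicate block, 2546 genes rose and 3048 fell, against 2840 and 3140 without it, and of the members other than Chrnb4 and P2rx3, 3 rose and 0 fell in both fits. Among the listed genes, Chrm1, Chrm4, Lrrc8a, Adk, Nt5e and Psma4 lost their calls with the block (adjusted p 0.0566 to 0.0731). Depth limits Chrna4, P2rx5 and the other genes of a few counts.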
